A study of Tachysurus vachellii with 6 samples.

Results

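The gill transcripts described here encode pattern receptors of the Toll-like and the NOD-like family, the sensors with which innate immunity detects microbes and cell damage. A gene was taken as a member when its symbol began with tlr or nlrc, or when its description named a Toll-like receptor, an NLRC protein, an NLR family member or a protein with NACHT, LRR and PYD domains. It also had to reach 1 FPKM (fragments per kilobase of transcript, scaled to the size of the library) in at least 3 of the 6 libraries. Of the 28288 genes in the deposited table, 9 carried a Toll-like name and 161 a NOD-like name. The filter on low values left 5 Toll-like and 130 NOD-like members, 135 in all, of 15312 genes that passed it. Descriptions of genes without a symbol are likenesses to proteins of other fishes, so a name such as NLRC3-like is not an identity.

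The fish were hybrid yellow catfish, bred from Tachysurus fulvidraco mothers and Pseudobagrus vachellii fathers. The hypoxia group was kept for 96 h at 1.5 mg/L dissolved oxygen, and the normoxia group at 6.5 mg/L, after the same acclimation and fast. Gill RNA of 9 fish per group was mixed in sets of 3, so each group has 3 pooled libraries; the labels used here give neither age nor sex, and p-values measure only the spread between pools. The protocol text of all 6 samples names hypoxia, and the groups were taken from the treatment label of each sample.

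Toll-like receptors span the plasma membrane or the endosomal membrane and bind microbial lipids, proteins and nucleic acids; most of them signal through the adaptor MyD88 and IRAK kinases to NF-kappa-B. NOD-like receptors lie in the cytosol and are built around a NACHT domain and leucine-rich repeats; some form inflammasomes, and others, such as NLRC3, are known in mammals as brakes on immune signalling. Bony fishes carry a greatly expanded set of NOD-like genes, and the gill is a mucosal surface in constant contact with waterborne microbes.

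Total counts were 44762764 to 54578326 per hypoxia library and 46885400 to 55016223 per normoxia library. Across all 15312 genes tested with edgeR's quasi-likelihood test, 1461 genes (9.54%) had a Benjamini-Hochberg adjusted p under 0.05 and are termed called. Of these 825 were higher and 636 lower in hypoxia, and with library totals in place of TMM scaling 366 were higher and 798 lower. The median log2 difference, hypoxia over normoxia, was -0.04 over all genes with TMM scaling and -0.20 with library totals. Markers of gill epithelium and ionocytes were present, at a summed 5687 to 6876 FPKM in hypoxia and 5134 to 7472 FPKM in normoxia, although foxi3 was at 0 counts in every library. Muscle creatine kinase rows (ckm) summed to 225, 37.5 and 3.16 FPKM in hypoxia replicates 1, 2 and 3 and to 0.0838, 86.9 and 178 FPKM in normoxia replicates 1, 2 and 3, so a muscle transcript varied widely within both groups.

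None of the 5 Toll-like members was called by edgeR (0 of 5, against 9.54% of all genes), 2 had an unadjusted p under 0.05 (30.3% of all genes did) and DESeq2 called 1 of them lower. The log2 difference was above 0 for 1 and below 0 for 4 of the 5 members (47.1% of all genes lay above 0), with a median of -0.51 against -0.04 over all genes; with a library left out this median ran between -0.86 and -0.04. Their levels were low: member means over the 6 libraries ran from 1.68 to 5.36 FPKM. The 5 members together summed to 10.5, 11.3 and 16.9 FPKM in hypoxia and to 13.8, 19.2 and 19.5 FPKM in normoxia. The sums overlapped, since hypoxia replicate 3 lay above normoxia replicate 1.

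The cell-surface receptors were represented by tlr2 and by the TLR1-like gene LOC113659204, whose mammalian counterparts pair to bind bacterial lipopeptides. Levels of tlr2 (scaffold NW_020847782.1, 405456 to 410515) were 3.33, 2.92 and 5.98 FPKM in hypoxia, against 6.79, 6.81 and 6.34 FPKM in normoxia. All 3 hypoxia libraries lay below all 3 normoxia libraries, but hypoxia replicate 3 came close to them, and the log2 difference of -0.57 ± 0.25 (SE) had an edgeR adjusted p of 0.172. LOC113659204 (NW_020848034.1, 1129550 to 1133665) had 1.24, 0.895 and 0.576 FPKM in hypoxia, against 1.9, 3.25 and 2.23 FPKM in normoxia. Its groups did not overlap either. The log2 difference was -1.24 ± 0.39 with an edgeR adjusted p of 0.0882, and it was called by DESeq2 (adjusted p 0.0257); over all alternatives the adjusted p ran from 0.0257 to 0.252. Groups that do not overlap with hypoxia lower were found for 25.9% of all genes tested.

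The endosomal receptors recognise nucleic acids, and their transcripts gave no common direction. The receptor for double-stranded RNA, tlr3 (NW_020848200.1, 831373 to 837382), was the member with a difference above 0. It had 2.70, 3.73 and 3.30 FPKM in hypoxia, against 1.84, 2.28 and 2.94 FPKM in normoxia. The groups overlapped through hypoxia replicate 1, and the log2 difference was 0.62 ± 0.22 with an edgeR adjusted p of 0.117. The TLR8-like gene LOC113642084, whose mammalian counterpart binds single-stranded RNA, had 3.12, 3.07 and 3.06 FPKM in hypoxia and 2.95, 3.73 and 4.20 FPKM in normoxia. Its hypoxia libraries lay inside the normoxia range (-0.06 ± 0.18 on the log2 scale, edgeR adjusted p 0.839), and its sign turned under 3 alternatives. Its neighbour tlr7 lies beside it on scaffold NW_020848401.1 (729179 to 733082, next to 733350 to 738175) and stayed below the filter.

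The TLR9-like gene LOC113656076, related to the mammalian sensor of unmethylated CpG DNA, varied more between pools than between groups. It had 0.0765, 0.722 and 3.98 FPKM in hypoxia and 0.357, 3.09 and 3.74 FPKM in normoxia. Both groups hold a library well below 1 FPKM and a library near 4 FPKM, so they overlap almost fully, and the log2 difference was -0.51 ± 1.22 (edgeR adjusted p 0.811).

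**Figure D1:**
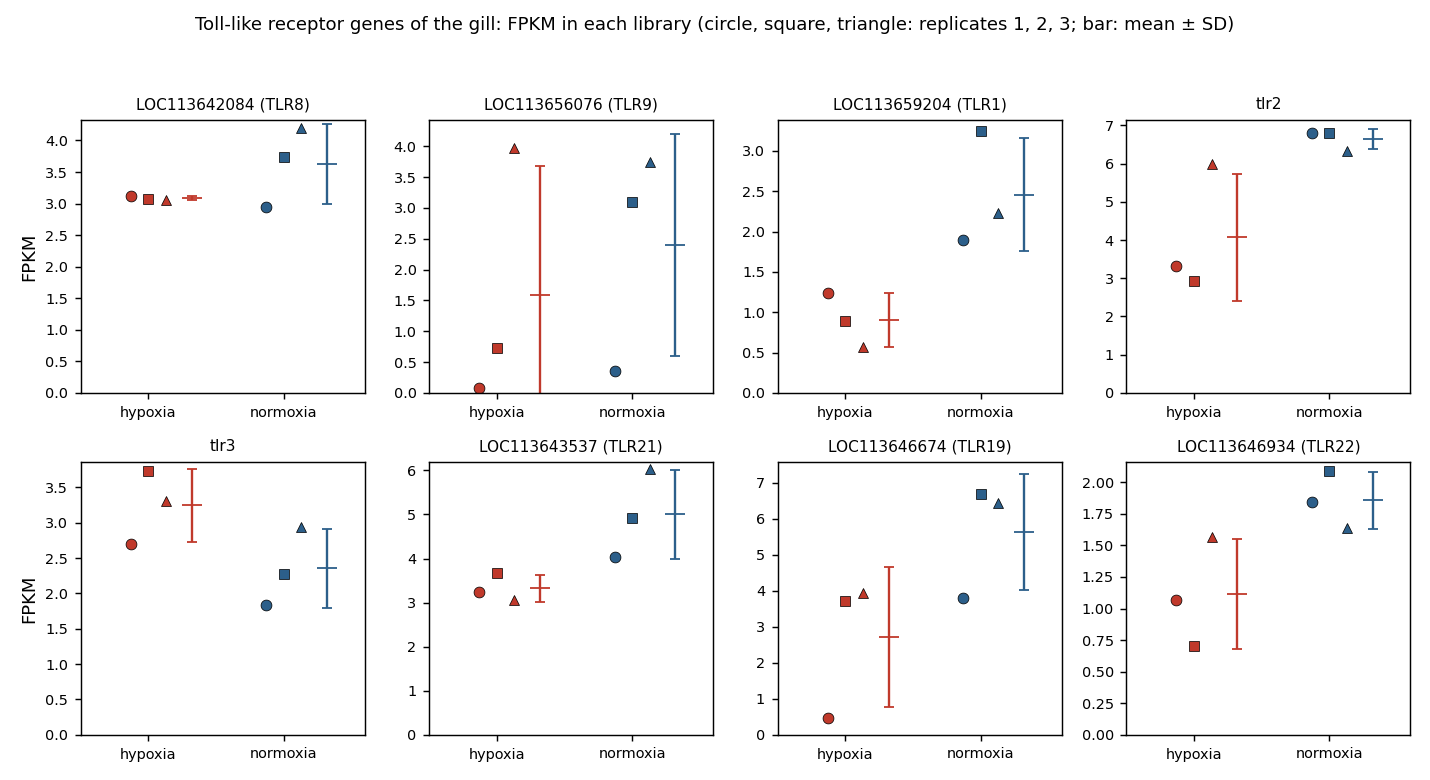
FPKM (linear axis from 0) of the 5 Toll-like members and of 3 further Toll-like genes in each library, hypoxia in red left of normoxia in blue; bars give mean ± SD of 3 libraries and are cut at 0. LOC113659204, tlr2, LOC113643537 and LOC113646934 have all hypoxia libraries below all normoxia libraries, while LOC113656076 spans nearly its whole range within each group.

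The other 4 rows with a Toll-like name fell below the filter and were not tested. They are tlr7, a pair of TLR4-like genes that neighbour each other (LOC113639828 and LOC113639965) and the TLR5-like gene LOC113635787, kin of the mammalian flagellin receptor, and the highest level of any of them in a library was 0.604 FPKM. Ranked by the third-highest library, the lowest member was LOC113659204 at 1.9 FPKM and the highest row outside was LOC113639828 at 0.227 FPKM. A further 10 rows are described as TLR with a number but not as Toll-like receptors, so the naming rule missed them, and 3 of these reached the filter; they were added after the descriptions were read. The TLR21-like gene LOC113643537, a CpG DNA sensor in zebrafish, had 3.24, 3.67 and 3.07 FPKM in hypoxia and 4.03, 4.93 and 6.04 FPKM in normoxia (log2 difference -0.42 ± 0.20, edgeR adjusted p 0.212). The TLR19-like gene LOC113646674 and the TLR22-like gene LOC113646934, of fish-specific lineages, differed by -0.93 ± 0.64 and -0.59 ± 0.32 on the log2 scale (edgeR adjusted p 0.369 and 0.254). LOC113646674 had 0.481, 3.73 and 3.93 FPKM in hypoxia and 3.79, 6.68 and 6.44 FPKM in normoxia. Without hypoxia replicate 1 its log2 difference was -0.45. Of these 3 genes edgeR, DESeq2 and limma called 0 (edgeR called 9.54% of all genes). None had an edgeR unadjusted p under 0.05 (30.3% of all genes did). All 3 differences lay below 0 (52.9% of all genes did), and 3 genes are too few to set against these shares.

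Of the 130 NOD-like members, 12 were called by edgeR (9.23%, against 9.54% of all genes), and 27 had an unadjusted p under 0.05 (30.3% of all genes did). Of these, 2 rose (1.54% of members, against 5.39% of all genes) and 10 fell (7.69%, against 4.15%). With library totals in place of TMM scaling 2 were called higher (1.54%, against 2.39% of all genes) and 13 lower (10.0%, against 5.21%). Both members that rose passed the filter through the hypoxia libraries alone, and the split of directions was not tested against that of all genes. The log2 difference was below 0 for 96 members (73.8%), against 52.9% of all genes, with a median of -0.36, against -0.04, and this median is the same with the member at 0 counts in normoxia set to its bound. Low expression went with differences below 0 in the whole table too. Among genes with a mean under 10 FPKM, 75 of 102 members (73.5%) lay below 0 with a median of -0.44, against 62.9% of 9014 genes with a median of -0.16. Groups that do not overlap with hypoxia lower were found for 33 members (25.4%, against 25.9% of all genes), and with hypoxia higher for 2 members (1.54%, against 11.4%). Without normoxia replicate 2, and likewise without normoxia replicate 3, 0 members were called lower, and without hypoxia replicate 1, 2 or 3 it was 2, 2 and 3 members. Calls dropped in the whole table too. Of all 15312 genes, 636 were called lower with all libraries, but 64 and 86 without normoxia replicate 2 or 3. Without hypoxia replicate 1, 2 or 3 it was 122, 109 and 259 genes. Close copies can share reads, so the value of a single copy depends on how such reads were counted, which no source used here gives.

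Summed over the 130 members, NOD-like transcripts reached 694, 661 and 983 FPKM in hypoxia, against 892, 1135 and 1101 FPKM in normoxia. Hypoxia replicate 3 lay above normoxia replicate 1, so the sums overlapped. The means were 779 ± 177 FPKM in hypoxia and 1043 ± 131 FPKM in normoxia (SD, n = 3 each), a ratio of 0.748. FPKM are not TMM-scaled, and on them the whole table leaned lower in hypoxia. The median log2 difference over all genes was -0.17 with limma on log2(FPKM + 1) and -0.20 on log2(FPKM + 0.1). Summed over TMM-scaled CPM (counts scaled to library size), the ratio was 0.802, and hypoxia replicate 3 again lay above normoxia replicate 1. As a share of all counts the members made up 0.194%, 0.185% and 0.267% in hypoxia and 0.252%, 0.336% and 0.312% in normoxia. These shares are not TMM-scaled either, and with library totals the median log2 difference over all genes was -0.20. In whole-gill RNA, fewer cells of a type and less RNA per cell cannot be told apart.

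**Figure D2:**
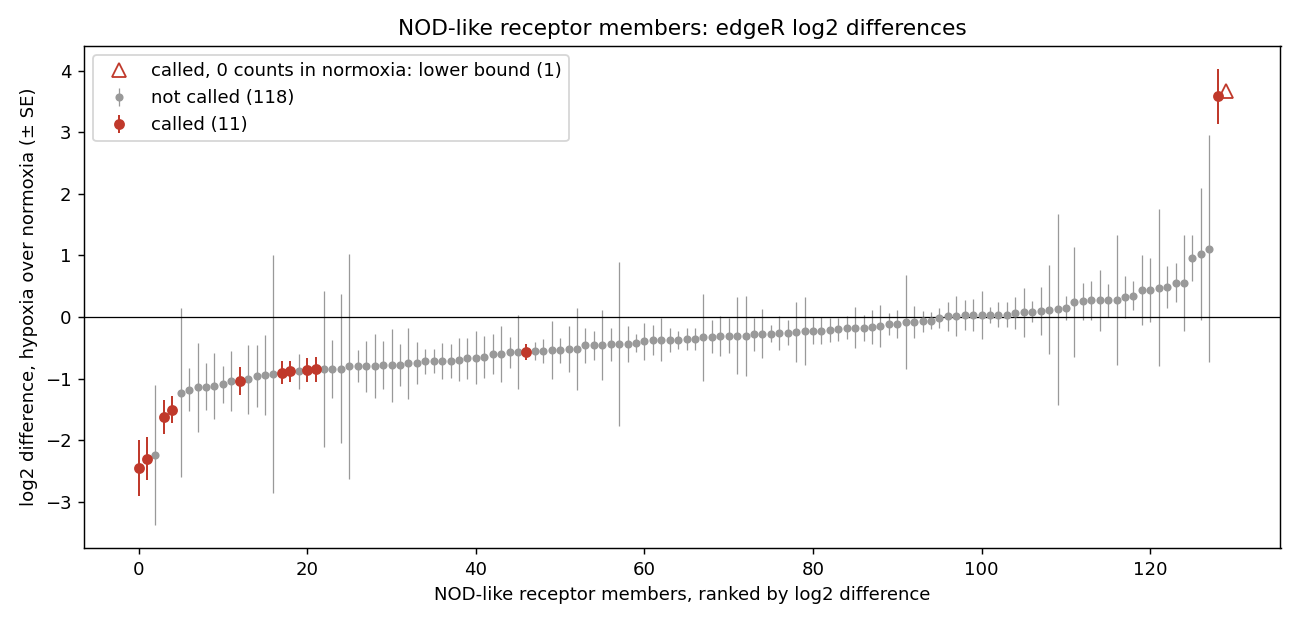
Log2 differences (hypoxia over normoxia, ± SE, edgeR) of the 130 NOD-like members in rank order; the 11 filled red points were called, and the open triangle is LOC113648168, which had 0 counts in every normoxia library and is drawn at its lower bound of 12.7-fold. Grey points are the 118 members that were not called; most of the curve, 96 members, lies below 0.

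The 2 members that rose were an NLRC3-like and an NLRP12-like gene. LOC113642609, an NLRC3-like gene (NW_020848413.1, 97798 to 115935), had 4.51, 4.95 and 4.51 FPKM in hypoxia, against 0.496, 0.621 and 0.183 FPKM in normoxia. The hypoxia libraries were nearly equal and far above all 3 normoxia libraries, and the log2 difference was 3.58 ± 0.45 (11.9-fold, edgeR adjusted p 0.0134). It passed the filter through the hypoxia libraries alone, so a member like it had to differ to be tested. Of the 12 called it is the one that was also called in all 6 fits that left out a library. Another NLRC3-like gene ends just before it on the same strand, LOC113642611 (94897 to 96103). That neighbour had 10.2, 1.72 and 0 FPKM in hypoxia and 14.0, 6.38 and 13 FPKM in normoxia, which overlap (log2 difference -1.23 ± 1.37, edgeR adjusted p 0.587), and it was looked up after the values of LOC113642609 were seen.

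LOC113648168, an NLRP12-like gene (NW_020847763.1, 8236724 to 8242366), had counts of 25, 49 and 43 in hypoxia and 0 counts in all 3 normoxia libraries. In FPKM this was 1.11, 1.83 and 1.59 in hypoxia, so it too passed the filter through the hypoxia libraries alone. Against a floor of 3 counts per normoxia library it was at least 12.7-fold higher in hypoxia (edgeR adjusted p 0.0319), and it was called in 1 of the 6 fits that left out a library. Its level is the lowest of any member by the third-highest library (1.11 FPKM), and the row just outside the filter, LOC113659070, had 0.986 FPKM there.

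The falls were led by NLRC3-like genes. LOC113652930 (NW_020847928.1, 548574 to 550856) had 1.22, 0.515 and 0.834 FPKM in hypoxia, against 3.34, 7.30 and 5.49 FPKM in normoxia. The groups were well apart although the normoxia libraries spread widely, and the log2 difference was -2.45 ± 0.46 (edgeR adjusted p 0.0302). LOC113653190 and LOC113653191 lie beside each other on the same strand of NW_020847935.1 (111033 to 144171 and 22687 to 87147). LOC113653190 had 0.311, 0.441 and 0.803 FPKM in hypoxia, against 2.17, 2.76 and 3.52 FPKM in normoxia (log2 difference -2.30 ± 0.35, edgeR adjusted p 0.0198). LOC113653191 had 1.66, 1.59 and 1.54 FPKM in hypoxia, against 3.75, 5.07 and 6.50 FPKM in normoxia (-1.50 ± 0.22, edgeR adjusted p 0.0194). LOC113653190 passed the filter through the normoxia libraries alone, so its difference is part of why it was tested. In both neighbours every hypoxia library lay below every normoxia library (25.9% of all genes had such groups). For LOC113653190 the filter had fixed this order. Their sequences were not compared, so whether they are close copies that share reads is not known. LOC113662843 (NW_020848094.1, 34690 to 81096) had 1.78, 3.82 and 3.20 FPKM in hypoxia, against 8.36, 9.26 and 12.3 FPKM in normoxia. Its groups did not overlap either (-1.62 ± 0.27 on the log2 scale, edgeR adjusted p 0.0240). All of these NLRC3-like genes were picked by their edgeR call, so the gaps between their groups are not separate evidence.

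The other falls were smaller and belonged to genes named after NLRP proteins, which in mammals include inflammasome sensors. LOC113641703 (NLRP12-like) averaged 3.86 ± 0.613 FPKM in hypoxia and 8.90 ± 2.51 FPKM in normoxia (log2 difference -1.04 ± 0.23, edgeR adjusted p 0.0395). LOC113646452 (NLRP12-like) averaged 7.26 ± 1.22 FPKM in hypoxia and 14.8 ± 2.54 FPKM in normoxia (-0.86 ± 0.19, adjusted p 0.0412). Among NLRP4E-like genes LOC113649467 averaged 1.88 ± 0.198 FPKM in hypoxia and 3.93 ± 0.584 FPKM in normoxia (-0.90 ± 0.18, adjusted p 0.0344). The NLRP1b-like gene LOC113659125, kin of a mouse inflammasome sensor, averaged 5.33 ± 0.861 FPKM in hypoxia and 11 ± 0.633 FPKM in normoxia (-0.88 ± 0.17, adjusted p 0.0328). The last of the 12 called, named here because they complete the count, were LOC113641510 (NLRP1b-like, -0.85 ± 0.20, adjusted p 0.0441) and LOC113635619 (NLRP4E-like, -0.56 ± 0.13, adjusted p 0.0479). In none of these 6 genes did the groups overlap (25.9% of all genes had such groups with hypoxia lower). The 6 were picked by their edgeR call, so this is not separate evidence. LOC113646452, LOC113659125 and LOC113635619 were called in 0 of the 6 fits that left out a library, and LOC113641703, LOC113649467 and LOC113641510 in 1, the fit without normoxia replicate 1. Of the 4 NLRC3-like falls, LOC113662843 was called in 3 of these fits and the other 3 genes in 2.

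**Figure D3:**
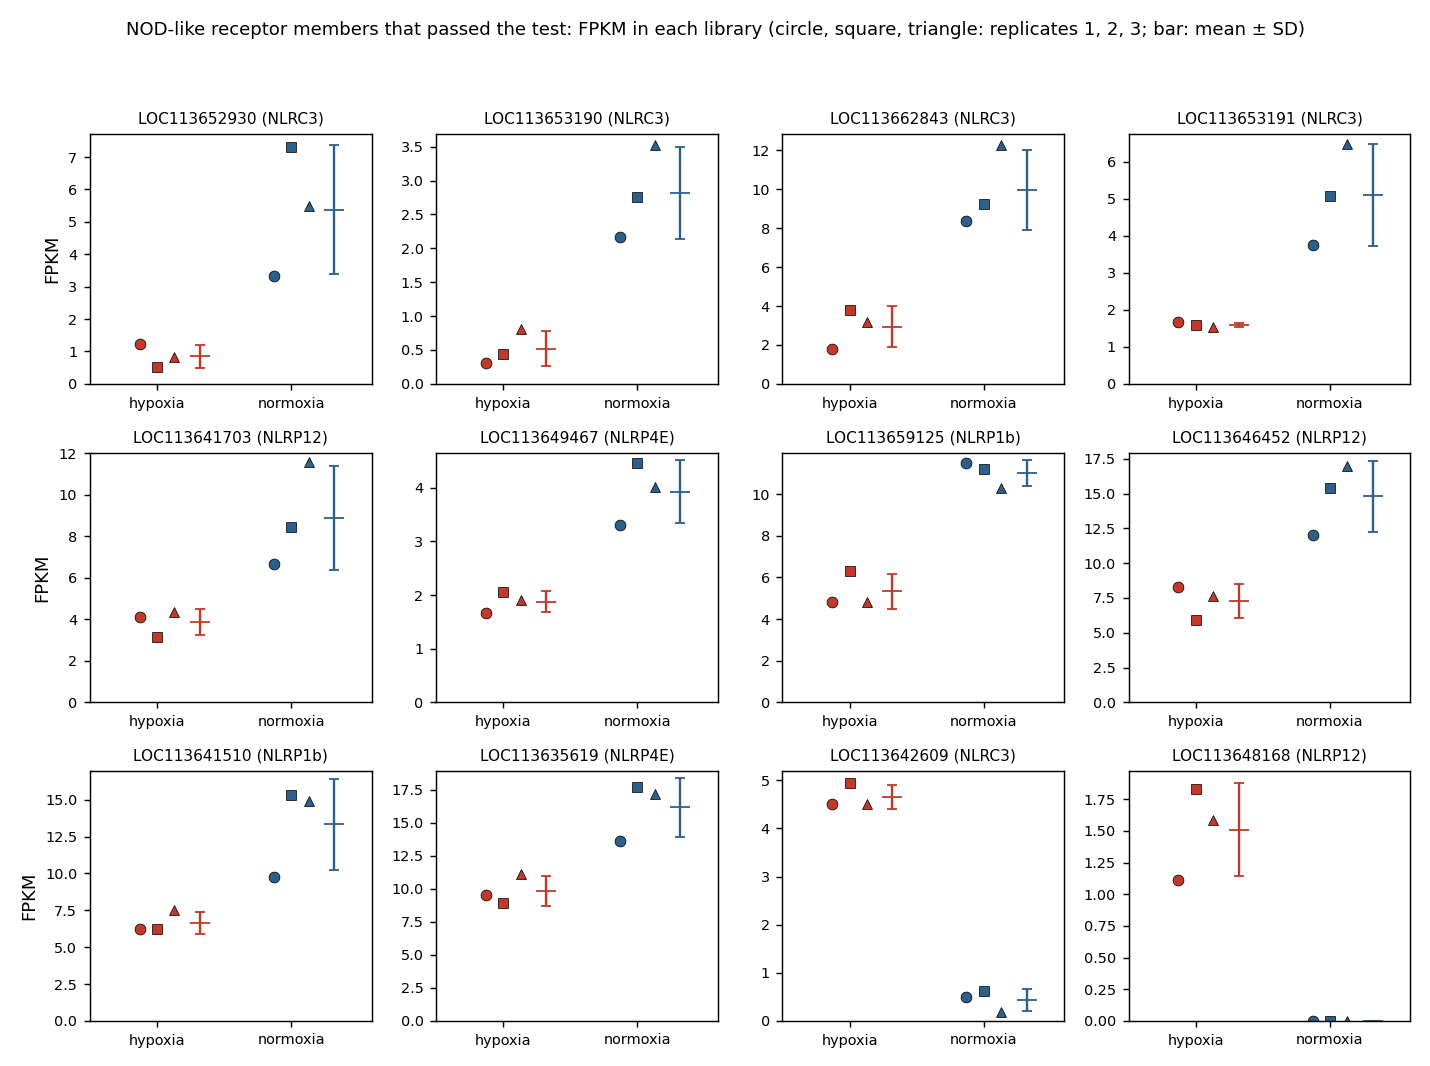
FPKM (linear axis from 0, scaled per panel) of the 12 called NOD-like members in each library, hypoxia in red left of normoxia in blue, with mean ± SD of 3 libraries. The first 10 panels have every hypoxia library below every normoxia library, and LOC113642609 and LOC113648168 show the opposite order.

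By name, 88 of the 130 members were NLRC3-like, of which 1 rose (1.14%, against 5.39% of all genes) and 4 fell (4.55%, against 4.15%). Of 14 NLRP12-like members 1 rose and 2 fell, and of 15 NLRP4E-like members 0 rose and 2 fell. All 4 NLRP1b-like members had differences below 0 (52.9% of all genes did), and 2 of them fell, LOC113659125 and LOC113641510, calls that 0 and 1 of the 6 fits without a library repeated. Their sum, which holds the 2 called genes, was 16.4, 19.9 and 17.4 FPKM in hypoxia, against 29.2, 43.8 and 39.6 FPKM in normoxia, without overlap. Sums of NLRP12-like members (43.7 to 49.4 FPKM in hypoxia, 58.4 to 72.2 FPKM in normoxia) did not overlap either. Nor did those of NLRP4E-like members (67.5 to 93.9 and 96.5 to 120 FPKM). The NLRC3-like (488 to 763 and 660 to 842 FPKM) and NLRP3-like sums (22.9 to 39.2 and 29.9 to 39.6 FPKM) overlapped. FPKM are not TMM-scaled. None of 6 NLRP3-like members was called (by edgeR, DESeq2 or limma, and 0 at an unadjusted p under 0.05), with a median log2 difference of -0.25. Differences between these name classes were not tested.

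The NOD-like members that carry a symbol were not called. nlrc3 itself, which restrains signalling in mammals, had 6.94, 7.19 and 7.43 FPKM in hypoxia, against 11.4, 13.8 and 10.1 FPKM in normoxia. Its groups did not overlap, and with a log2 difference of -0.55 ± 0.15 it missed the threshold (edgeR adjusted p 0.0584); 5 alternatives called it lower. nlrc5, a transactivator of MHC class I genes in mammals, had 7.27, 7.75 and 9.96 FPKM in hypoxia, against 8.89, 17.6 and 19.0 FPKM in normoxia (-0.71 ± 0.27, edgeR adjusted p 0.128). Its groups overlapped through normoxia replicate 1, and without that replicate it was called (adjusted p 0.0366, in a range of 0.0366 to 0.309 over all alternatives). nlrx1, a mitochondrial member, had 5.11, 5.22 and 7.29 FPKM in hypoxia and 4.67, 7.66 and 6.70 FPKM in normoxia (0.04 ± 0.20, edgeR adjusted p 0.906), a difference of either sign depending on the setting. Of 2 tested members named after NLRX1, the other, without a symbol, had a log2 difference of -0.71. Its groups did not overlap, with hypoxia lower (25.9% of all genes had such groups). edgeR did not call it (unadjusted p under 0.05), and DESeq2 called it lower.

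The most abundant members were all NLRC3-like and none of the top 5 was called. LOC113638331 had 32.2, 25.9 and 59.9 FPKM in hypoxia and 29.5, 38.9 and 39.1 FPKM in normoxia (log2 difference 0.27 ± 0.27, edgeR adjusted p 0.541). LOC113658673 had 26.1, 20.2 and 37.7 FPKM in hypoxia and 30.9, 39.9 and 33.8 FPKM in normoxia (-0.17 ± 0.21, edgeR adjusted p 0.616). In both genes hypoxia replicate 3 was the highest hypoxia library and the groups overlapped. LOC113636435, LOC113646198 and LOC113634822 followed, with means of 31.8, 24.3 and 21.7 FPKM in hypoxia and 27.6, 25.9 and 24.2 FPKM in normoxia. Their log2 differences were 0.35 ± 0.23, 0.06 ± 0.26 and -0.01 ± 0.16 (edgeR adjusted p 0.341, 0.892 and 0.981), and the sign of LOC113646198 and of LOC113634822 depended on the setting.

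The spread between pools was wider for NOD-like members than for the median gene, as a description without a test. The median within-group SD of log2(FPKM + 1) was 0.347 in hypoxia and 0.304 in normoxia, against 0.224 and 0.184 over all genes tested, and the median SE of the log2 difference was 0.32 against 0.21. A count of 0 in some library was found for 10 members (7.69%, against 1.42% of all genes). At least a 5-fold range within both groups was found for 8 members (6.15%), against 1.68% of all genes, and below a mean of 10 FPKM for 7.84% of members, against 2.19% of genes. Except for LOC113645412, with 75 to 1936 counts, these 8 members had at most 75 counts in any library. The comparison below 10 FPKM does not match members and genes by count. LOC113645412 (NLRC3-like, NW_020847801.1, 2573396 to 2600825) had 0.414, 8.02 and 0.624 FPKM in hypoxia and 8.80, 1.01 and 8.39 FPKM in normoxia. LOC113645641 (NLRP3-like), farther along the same strand of that scaffold (2637863 to 2645998), had 0, 1.24 and 0 FPKM in hypoxia and 1.3, 0 and 1.38 FPKM in normoxia. The same 3 pools, hypoxia replicate 2 and normoxia replicates 1 and 3, were high for both genes, and neither followed the oxygen level. With 3 fish per pool, differences between single fish cannot be read from these values.

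**Figure D4:**
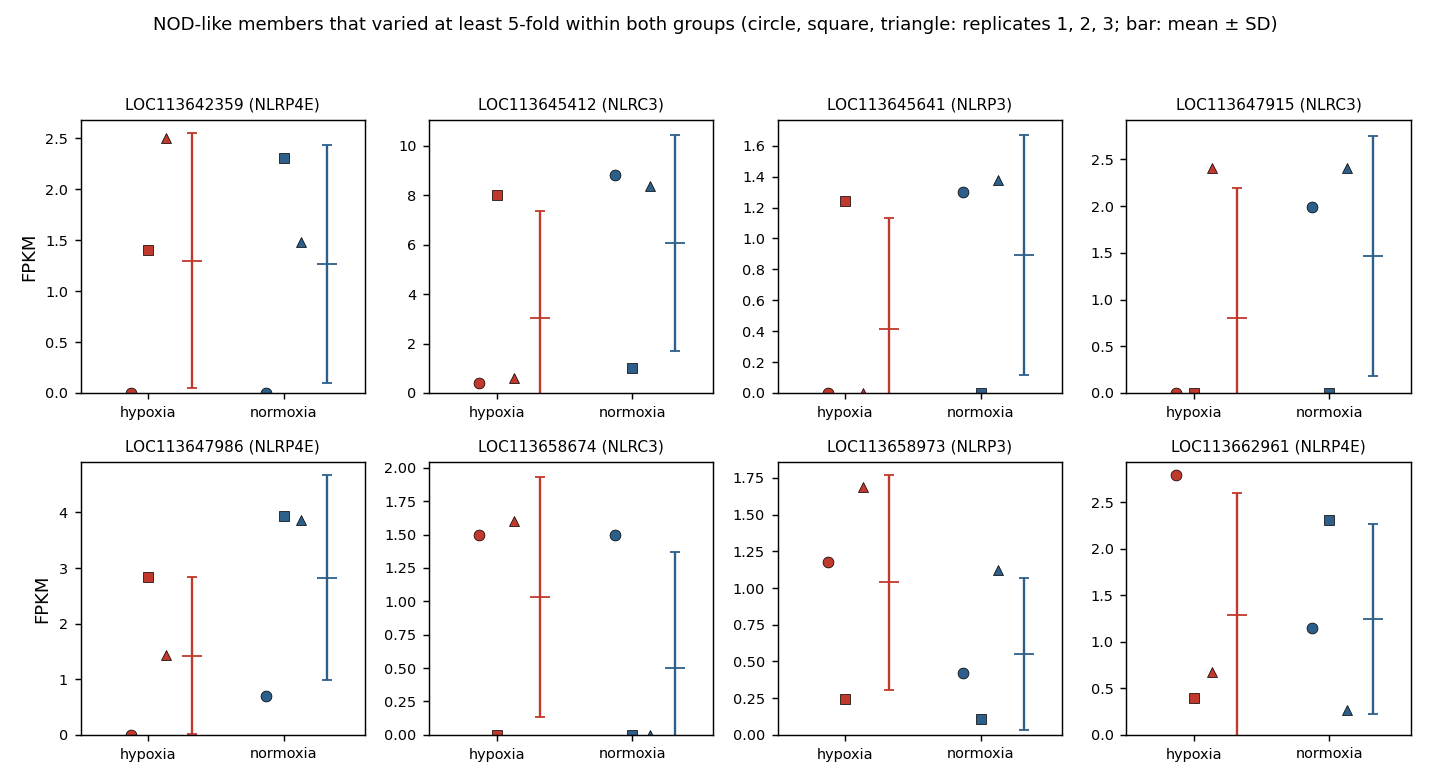
FPKM (linear axis from 0, scaled per panel) of the 8 NOD-like members that varied at least 5-fold within both groups, hypoxia in red left of normoxia in blue; bars give mean ± SD of 3 libraries and are cut at 0. High and low pools occur in both groups of every panel, and LOC113645412 and LOC113645641 share their high pools.

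The 130 members lay on 75 of the 612 scaffolds in the table. The scaffold NW_020847763.1 held 9 of them, and 12 scaffolds with 3 or more members held 52 (40.0%). For 75 members (57.7%) another row with a NOD-like name lay within 100 kb, and this was so for 6 of the 12 called members. In a run of NLRP12-like genes on NW_020847763.1, looked up after the calls were seen, LOC113646452 fell while its direct neighbour LOC113646436 had 4.55, 7.82 and 8.30 FPKM in hypoxia and 9.49, 8.72 and 4.27 FPKM in normoxia (log2 difference 0.02, edgeR adjusted p 0.980). Whether these neighbours differ in their response was not tested. No source used here gives the genome build or the strand setting, so reads of genes that overlap cannot be assigned to a strand. Levels of 96 members were at least 1 FPKM in all 6 libraries, 2 members passed through the hypoxia libraries alone and 2 through the normoxia libraries alone. Of the 31 NOD-like rows below the filter, 20 reached 1 FPKM in some library, up to 8.84 FPKM, and 1 had 0 counts throughout.

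The genes through which the receptors signal were described by 2 lists, chosen with earlier results of these data known. Of 28 tested genes in a list of Toll-like signalling, 1 was called higher and 0 lower by edgeR (3.57% in all, against 9.54% of all genes), 9 had an unadjusted p under 0.05 (32.1%, against 30.3%), and the median log2 difference was -0.14, against -0.04 over all genes. With library totals in place of TMM scaling 0 were called higher and 3 lower, and with DESeq2 2 higher and 5 lower. Differences lay below 0 for 20 of the 28 genes (71.4%, against 52.9% of all genes). Groups that do not overlap were found with hypoxia lower for 13 (46.4%, against 25.9%) and with hypoxia higher for 1 (3.57%, against 11.4%). These shares were not tested. The gene that rose was ube2n, a ubiquitin-conjugating enzyme that works with TRAF6, at 120, 136 and 148 FPKM in hypoxia, against 108, 95.3 and 106 FPKM in normoxia (0.54 ± 0.12, edgeR adjusted p 0.0441). Its hypoxia libraries all lay above the normoxia libraries, but no alternative that left out a library called it. The adaptor myd88 averaged 6.77 ± 0.458 FPKM in hypoxia and 9.33 ± 0.844 FPKM in normoxia (-0.30 ± 0.13, adjusted p 0.186). The kinases irak1 and irak4 had differences of 0.01 ± 0.17 and -0.03 ± 0.14 and the ubiquitin ligase traf6 one of -0.12 ± 0.12 (adjusted p 0.964, 0.915 and 0.552).

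In a list of NOD-like signalling, 17 genes were tested, and 0 were called higher and 1 lower by edgeR (5.88% in all, against 9.54% of all genes). An unadjusted p under 0.05 was found for 6 (35.3%, against 30.3%), and the median log2 difference was -0.07, against -0.04. With library totals and with either limma fit 0 were called higher and 2 lower, and with DESeq2 0 higher and 3 lower. With no filter on low values 0 were called higher and 0 lower. Differences lay below 0 for 9 of the 17 (52.9%, the share of all genes too). Groups that do not overlap were found with hypoxia lower for 7 (41.2%, against 25.9%) and with hypoxia higher for 0 (against 11.4%). The edgeR call was ciita, the transactivator of MHC class II genes and itself of the NOD-like family by structure, though outside the naming rule. It had 6.62, 10.4 and 9.03 FPKM in hypoxia, against 15.9, 16.4 and 18.8 FPKM in normoxia (-0.82 ± 0.17, adjusted p 0.0344), with no overlap, and of the fits that left out a library 1, without hypoxia replicate 2, called it. The founding members of the family, which bind fragments of bacterial cell walls, also fall outside that rule. nod2 had 1.22, 1.50 and 1.98 FPKM in hypoxia, against 3.04, 5.04 and 2.80 FPKM in normoxia, without overlap (-1.06 ± 0.28, adjusted p 0.0565), and nod1 had a difference of -0.34 ± 0.14 (adjusted p 0.154). Their kinase ripk2 differed by -0.48 ± 0.16 (adjusted p 0.0956) and a second ripk2-like gene, LOC113636462, by -0.60 ± 0.28 (0.204). The inflammasome adaptor pycard (LOC113652105) averaged 42.1 ± 6.54 FPKM in hypoxia and 37.1 ± 2.85 FPKM in normoxia (0.33 ± 0.14, adjusted p 0.171).

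**Figure D5:**
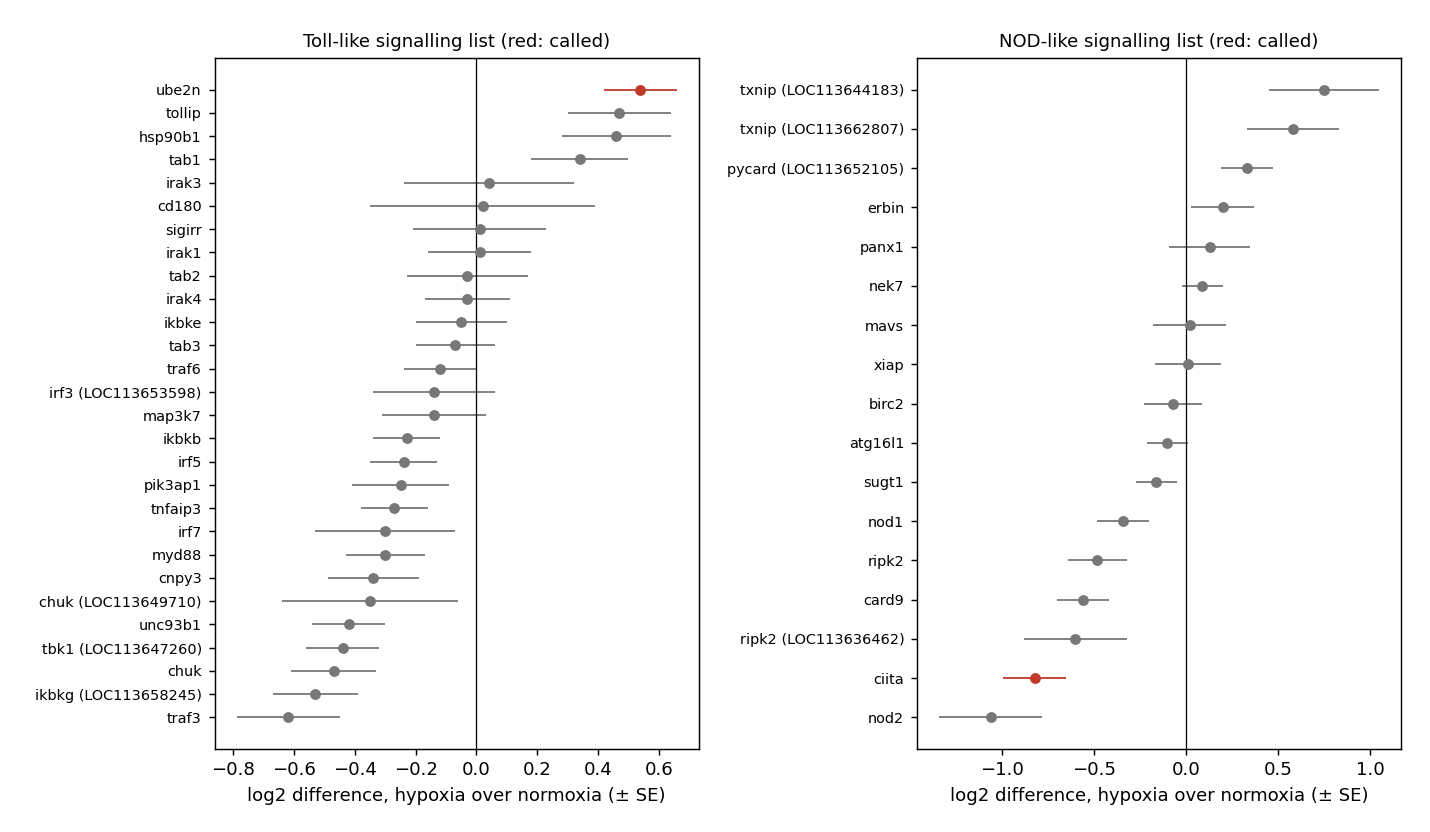
Log2 differences (hypoxia over normoxia, ± SE, edgeR) of the tested genes in the Toll-like signalling list (28, left panel) and the NOD-like signalling list (17, right panel); red marks the called genes ube2n and ciita. Most points lie within 0.6 of 0, and nod2, not called, has the lowest value of the right panel at -1.06.

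Among 8 tested rows for other pattern receptors, 1 was called by edgeR (12.5%, against 9.54% of all genes), and DESeq2 called 1 higher and 1 lower. Of the 8 differences 4 lay above 0 and 4 below, with a median of 0.06. The edgeR call was ifih1. This gene, the MDA5 sensor of double-stranded RNA, fell to 5.34, 4.52 and 5.40 FPKM in hypoxia, against 9.98, 12.3 and 14.4 FPKM in normoxia (-1.09 ± 0.17, edgeR adjusted p 0.0198). It was called in 3 of the 6 fits that left out a library. Of 17 tested rows for genes that these receptors are known to induce, edgeR called 0 higher and 3 lower (17.6%, against 4.15% of all genes). DESeq2 called 1 higher and 4 lower. An edgeR unadjusted p under 0.05 was found for 6 (35.3%, against 30.3% of all genes). Differences were above 0 for 5 of the 17 rows, up to 1.26, and below 0 for 12. Both lists were chosen with earlier results of these data known, so their shares of calls are not independent of these data. nos2, inducible nitric oxide synthase, had 1.47, 2.70 and 2.77 FPKM in hypoxia, against 147, 86.0 and 87.8 FPKM in normoxia (-5.39 ± 0.36, edgeR adjusted p 0.00204). nfkbia and the nfkbia-like gene LOC113647937, which encode inhibitors of NF-kappa-B, differed by -1.3 ± 0.27 and -1.05 ± 0.21 (adjusted p 0.0352 and 0.0347). With a library left out nos2 was called in all 6 fits, nfkbia in that without hypoxia replicate 3 and LOC113647937 in that without hypoxia replicate 1. The 3 tnf-like rows were not called, with differences of -0.64 ± 0.35 (LOC113634667), -0.66 ± 0.24 (LOC113642755) and 0.17 ± 0.30 (LOC113662866).

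Leukocytes carry many of these receptors, and some of their markers were lower in hypoxia too; of all genes 4.15% were called lower and 52.9% had differences below 0. Among B cell markers 3 of 18 tested rows fell (cd79a, blnk and btk), all 18 differences were below 0 (17 with RLE factors), and each of the 3 was called in 1 of the 6 fits that left out a library. The list names only cd79a, cd79b, pax5, cd22, blnk and btk, so the 18 rows are not 18 separate markers. The median of their mean levels was 2.12 FPKM. Over all 42 matched B cell rows, tested or not, the summed level was 53.7 to 72.5 FPKM in hypoxia and 106 to 164 FPKM in normoxia. Among neutrophil markers 2 of 5 fell, a myeloperoxidase-like row (LOC113661326, called in 0 of these fits) and a csf3r-like row (called in 1). The log2 difference of 1 neutrophil row was above 0, at 0.64, and in 1 row every hypoxia library lay above every normoxia library. The neutrophil sum was 110 to 145 FPKM in hypoxia and 163 to 189 FPKM in normoxia. None of 10 T cell rows was called by edgeR (5 at an unadjusted p under 0.05, and 4 lower by DESeq2 and 3 by limma), with sums of 177 to 233 FPKM in hypoxia and 264 to 295 FPKM in normoxia. Of 11 macrophage rows 2 fell, an mpeg1-like row (called in 5 of these fits) and spi1 (called in 0). The macrophage differences were above 0 for 5 rows and below 0 for 6, from -0.92 to 1.22 with a median of -0.09. Over all 13 matched macrophage rows, tested or not, the sums overlapped at 552 to 597 FPKM in hypoxia and 551 to 682 FPKM in normoxia. For 4 markers of all leukocytes, none called by edgeR (1 at an unadjusted p under 0.05, and 1 lower by DESeq2 and by limma), the sums were 570 to 669 FPKM in hypoxia and 642 to 813 FPKM in normoxia. Of 8 endothelial rows 1 fell, and edgeR called 0 of 3 thrombocyte and 0 of 11 erythrocyte rows (1 of each at an unadjusted p under 0.05, 0 by DESeq2 and limma). Thrombocyte markers summed to 4.60 to 8.03 FPKM in hypoxia and 10.9 to 16.3 FPKM in normoxia, without overlap, and all 3 differences were below 0 (median -1.02). By log2 difference the rows of gill epithelium and ionocytes mostly lay on the other side: 19 of 23 differences were above 0 (47.1% of all genes were), with a median of 0.37 (17 of 23 and 0.19 with library totals), and edgeR called 0 of them (4 at an unadjusted p under 0.05, 1 higher and 2 lower by DESeq2, 2 lower by limma). Over all 30 matched rows, tested or not, their sums overlapped, at 5687 to 6876 FPKM in hypoxia and 5134 to 7472 FPKM in normoxia. Groups did not overlap with hypoxia lower in 2 tested rows and with hypoxia higher in 1. No matched leukocyte marker, summed over its rows, was at 0 in a library. The marker lists, too, were chosen with earlier results of these data known. The part of these cell types, and of the make-up of the tissue, in the receptor differences was not tested.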

How the data were processed

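Per the labels' protocols, oligo-dT-purified RNA of pooled gills was read from both ends (Illumina NovaSeq). Cutadapt 1.9 and HISAT are named, per the submitters' processing notes; no source used here gives the counter, genome build, annotation or whether a count is a read or a pair. Per the file headers, the authors deposited a count and an FPKM value per gene in every library. FPKM listed at 0.0001 belong to counts of 0 and were set to 0.

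Samples were grouped by their treatment labels and columns matched by title. Counts were fitted with edgeR 4.0.16 (glmQLFit and glmQLFTest, two-sided, TMM factors 0.869 to 1.08) in R 4.3.3 on genes that reached 1 FPKM in 3 or more libraries, with Benjamini-Hochberg adjustment over 15312 genes and calls at an adjusted p under 0.05. SEs come from the log2 difference and the F statistic. The common biological coefficient of variation was 0.329, so for genes with many counts precision is limited by how much pools differ rather than by depth. On simulated data for this comparison, over 15312 genes, 85% of 4-fold and 100% of 8-fold changes were recovered and 7 unchanged genes were called. Each simulated gene had the spread typical of genes at its level, and smaller changes were not simulated. NOD-like members spread more (median SE 0.32, against 0.21 for all genes), so these rates do not carry over to them. No libraries of a group agreed within counting noise (chi-square per gene 137 to 224).

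Alternatives were DESeq2 1.42.0, other scalings and filters, a length offset, limma 3.58.1 on log2(FPKM + 1) and log2(FPKM + 0.1), a replicate block and leaving out each library. Members and lists (textbook pathway and marker genes, matched by symbol or description) were chosen with earlier results of these data known. Genes named were every tested Toll-like member, NOD-like members with symbols, the 10 called with the largest log2 change, the 5 most abundant, called list genes and a fixed set of adaptors and kinases; il1b, tirap and ticam1 matched no row used here. For a correlation of genes with the members no value is given, because the libraries fall into 2 groups.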

Additional observations from a re-analysis of the deposited data

How the results depend on the processing

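The family sums kept their direction when summed over TMM-scaled CPM, over all named rows without the filter, and with each library left out, the 8 alternatives run on them. The log2 ratio of -0.44 for Toll-like sums ran from -0.68 to -0.28, and that of -0.42 for NOD-like sums from -0.62 to -0.31. All moved by less than the spread between pools. That spread (SDs of both groups combined, log2 scale) was 0.46 and 0.36, about as large as the ratios, so it is a wide bound. The median log2 difference of the NOD-like members was below that of all genes by 0.22 to 0.47 in every fit, and of the 12 called members 12 were called with RLE factors, library totals, either limma fit and DESeq2. Counts of calls depended on the setting, and beyond the smaller number of libraries in fits that leave out a library the cause was not tested. NOD-like members called lower were 5 with no filter on low values, 2 with the replicate block, 18 with DESeq2 and 0 to 9 when a library was left out, and members called higher were 0 at a mean of at least 5 FPKM (which removes both), 1 with the block and 1 to 2 when a library was left out. Of Toll-like members 1 was called lower with DESeq2. Over all genes, calls higher were 366 with library totals, 541 with no filter, 122 with the block, 479 and 436 with limma at pseudocounts of 1 and 0.1, 1792 with DESeq2 and 68 to 490 without a library; calls lower were 321 with no filter, 120 with the block, 370 with the length offset, 1540 with DESeq2 and 64 to 422 without a library. For both signalling lists together, calls higher were 2 with DESeq2, 0 with library totals, no filter, the block, the length offset and both limma fits, and 0 in each fit without a library; calls lower were 5 with library totals and at a mean of at least 5 FPKM, 4 and 3 with limma, 8 with DESeq2, 0 with no filter, the block and the length offset, and 0 to 1 without a library.

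Some genes, none of them called, changed sign, most of them with log2 differences near 0. LOC113656076, at -0.51 with all libraries, was not near 0 but varied widely between pools. With a library left out, log2 differences ran from -0.15 to 0.04 for LOC113642084, -2.36 to 0.04 for LOC113656076, -0.1 to 0.19 for nlrx1, -0.06 to 0.49 for LOC113638331, -0.36 to 0.01 for LOC113658673, -0.15 to 0.31 for LOC113646198, -0.11 to 0.06 for LOC113634822, -0.11 to 0.1 for irak1, -0.13 to 0.05 for irak4 and -0.08 to 0.4 for LOC113662866. The length offset gave 0.11 for LOC113642084, -0.05 for LOC113646198 and 0.15 for LOC113634822. Library totals gave -0.12 for nlrx1, -0.10 for LOC113646198, -0.16 for irak1 and -0.02 for LOC113662866. The stricter filter gave -0.04 for nlrx1 and -0.02 for LOC113646198, and no filter 0.05 for LOC113634822 and 0.03 for irak4. The limma fits gave -0.09 and -0.10 for nlrx1, -0.04 for LOC113646198, -0.13 and -0.15 for irak1 and -0.01 for LOC113662866. RLE factors and DESeq2 gave 0.01 for LOC113634822.

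Replicate numbers are shared between the groups, but over all genes tested deviations of same-numbered libraries did not correlate (r of -0.0453, 0.017 and -0.0511). The sample titles do not say what the number stands for. A correlation over all genes cannot show whether same-numbered libraries share a factor that acts on some genes only. With the replicate block 3 NOD-like members were called, all of them among the 12.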
